A study of Mus musculus with 18 samples.

Results

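The Ifit family cluster is a run of 6 protein-coding genes, Ifit2, Ifit3, Ifit1bl1, Ifit3b, Ifit1bl2 and Ifit1, that spans 112 kb of mouse chromosome 19. Chromatin accessibility was read there at 16 of the 53796 regions measured. A region was counted in the cluster when its midpoint lay in the body of a member gene, or when a member was the nearest protein-coding gene within 50 kb. The rule uses positions and no measured value, though the cluster was picked for study with earlier results of these data known. All 16 regions were tested. By gene, 8 regions fell to Ifit2, 5 to Ifit1bl1 and 1 each to Ifit3, Ifit3b and Ifit1bl2. Ifit1 received none, because its start lies 146 bases from that of Ifit1bl2 and a region that holds both starts has its midpoint in the body of Ifit1bl2. That region is called the Ifit1/Ifit1bl2 starts here. The body of Ifit1bl1 as annotated reaches across Ifit3b, Ifit1bl2 and Ifit1, and 3 of its 5 regions do not hold a start of its own. They lie just before Ifit3b, just past Ifit1, and 12.4 kb past Ifit1 near the upstream end of the annotated body. The last of these is called the far end of Ifit1bl1 here.

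The assay was ATAC-seq, in which a transposase cuts open DNA, on macrophages grown with M-CSF (20 ng/mL) from the bone marrow of wild-type C57BL/6 mice aged 6 to 12 weeks. The cells were given a first treatment for 4 h and a second for 4 h, and each of 9 groups had 2 libraries. With medium first, the second treatment was medium (MM), CpG at 100 nM (MC), LPS at 1 ng/mL (ML), polyI:C at 1 µg/mL (MP) or TNF at 10 ng/mL (MT). With CpG or polyI:C first at the same doses, the second was LPS (CL and PL) or TNF (CT and PT). No group used here had CpG or polyI:C followed by medium, so what a first stimulus left behind and what it added to the second cannot be told apart. The labels tie no library to an animal or a culture, so p-values reflect no more than the differences among the libraries at hand, which may be technical.

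IFIT proteins carry tetratricopeptide repeats and bind viral RNA that lacks the modified ends of host messenger RNA, which keeps it from being translated. Their genes are among the strongest targets of type I interferon. The interferon receptor activates a transcription factor complex that binds interferon-stimulated response elements (ISREs), and Irf3 can act on such elements directly. PolyI:C mimics double-stranded viral RNA and, like LPS and CpG, is a ligand of Toll-like receptors. TNF signals mainly to NF-kB.

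The sequences before the annotated starts are shown because the start regions that passed the test with polyI:C have ISRE cores and the one that did not pass has none. The core searched was GAAANNGAAA, or TTTCNNTTTC on the other strand, and each match is in capitals. The windows are from RefSeq on GRCm38.p6 and read 5′ to 3′ on the strand named. They are the 250 bases before the starts of Ifit3 (chr19:34583279-34583528, plus strand), Ifit3b (chr19:34607707-34607956, plus strand) and, for its outer start, Ifit1bl1 (chr19:34601969-34602218, minus strand). For Ifit1 the bases between its start and that of Ifit1bl2 are given (chr19:34640744-34640888, plus strand), and for Ifit2 those before its annotated body (chr19:34550444-34550549, plus strand).
Ifit3: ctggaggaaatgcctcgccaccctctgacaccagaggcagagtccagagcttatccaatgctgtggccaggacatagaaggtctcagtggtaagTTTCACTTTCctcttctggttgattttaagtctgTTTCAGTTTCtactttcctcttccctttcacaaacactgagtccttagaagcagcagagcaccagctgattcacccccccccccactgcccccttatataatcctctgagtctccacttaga
Ifit3b: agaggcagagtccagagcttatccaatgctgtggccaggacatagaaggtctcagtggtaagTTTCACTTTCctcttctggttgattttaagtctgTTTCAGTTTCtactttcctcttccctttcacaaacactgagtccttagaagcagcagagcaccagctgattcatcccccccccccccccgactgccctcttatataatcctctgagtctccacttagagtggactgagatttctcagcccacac
Ifit1: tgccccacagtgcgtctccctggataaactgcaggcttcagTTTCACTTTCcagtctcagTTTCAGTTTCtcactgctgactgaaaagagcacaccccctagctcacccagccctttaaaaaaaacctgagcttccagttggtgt
Ifit1bl1: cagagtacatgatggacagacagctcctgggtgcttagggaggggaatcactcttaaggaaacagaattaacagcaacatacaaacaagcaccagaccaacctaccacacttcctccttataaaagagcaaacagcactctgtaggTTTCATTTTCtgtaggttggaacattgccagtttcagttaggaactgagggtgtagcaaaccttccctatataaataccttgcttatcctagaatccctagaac
Ifit2: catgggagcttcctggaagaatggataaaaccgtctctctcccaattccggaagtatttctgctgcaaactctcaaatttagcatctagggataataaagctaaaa

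The same pair of cores, TTTCACTTTC and TTTCAGTTTC, stood in all of Ifit3, Ifit3b and Ifit1. They began 156 and 122 bases before the start of Ifit3, 188 and 154 before that of Ifit3b, and 104 and 85 before that of Ifit1. Read from Ifit1bl2 the pair by Ifit1 lies on the other strand, 70 and 51 bases before its outer start. Ifit1bl1 had the core TTTCATTTTC 104 bases before its outer start and 23 bases before its inner start. Ifit2 had none in the windows of its annotated starts, from 250 bases before to 50 after. Matches to other motifs are not described here. Of all 32851 RefSeq start windows of this length, 3.44% held 1 or more ISRE cores and 0.225% held 2 or more. The Ifit3 and Ifit3b windows aligned at 94.5% identity, with 1 mismatch and 14 gap columns over 274 columns. How reads that fit both copies were treated is not given in the sources used here, so the division of signal between the Ifit3 and Ifit3b starts is uncertain.

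Each library had between 3141641 and 5986835 reads in the regions. Replicates correlated across regions at r of 0.919 in PT and 0.958 to 0.973 in the other groups. The difference between the MP replicates was within sampling noise (chi-square per degree of freedom 1.00, and 1.07 to 2.71 in the other groups), so their mean entered every test as 1 sample. MP therefore adds nothing to the estimate of spread, and each test of MP borrows the spread of the other 8 groups. All 9 macrophage markers searched had a region, 5 of them at the start, with summed levels of 915 to 1183 CPM across groups. Of the T and NK cell, B cell, and fibroblast and endothelium markers, 2 of 6, 1 of 4 and 2 of 5 had a region and 0 had one at the start, with summed levels of 25.3 to 41.0, 28.3 to 63.8 and 95.02 to 129 CPM across groups. Of the neutrophil and dendritic cell markers, 3 of 5 and 4 of 4 had a region, with 2 and 1 at the start and summed levels of 41.2 to 85.4 and 224 to 297 CPM. The part of these cells in the results was not tested. Summed levels grow with the number of regions, which was 61 for macrophage and 16 for dendritic cell markers. It was 6 for fibroblast and endothelium markers and 3 each for T and NK cell, B cell and neutrophil markers. Median log2 CPM was 3.76 for macrophage, 3.56 for dendritic cell and 3.89 for fibroblast and endothelium markers. It was 3.17 for T and NK cell, 3.82 for B cell and 4.20 for neutrophil markers. Levels per region thus did not set macrophage markers apart. Levels are log2 CPM, reads scaled to library size with a small prior added before the logarithm, which puts 0 reads at -0.70. Differences are log2 ± SE, and a region is said to rise where limma's adjusted p over all regions is under 0.05.

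PolyI:C alone was compared with medium to ask how far this stimulus opened the cluster. It raised 14 of the 16 regions, against 14.3% of all regions raised in this comparison, and lowered 0. The median difference of the members was 1.98, and that of all regions was -0.01. In 14 regions both MP libraries lay above both MM libraries, though the share of all regions that did so was not counted. In bulk cells, more open copies per cell and more cells with open copies cannot be told apart.

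The start of Ifit3, which encodes an IFIT protein that partners Ifit1 in humans, lay in chr19:34583288-34583789. Its level was 2.93 and 2.97 in the MM libraries and 5.30 and 5.35 in the MP libraries. These groups lay far apart, at 63 reads in MM and 401 in MP, and the ratio of CPM was 5.58 (exact 95% interval 4.27 to 7.40, counting error only). The difference was 2.38 ± 0.22 (adjusted p = 3.96e-10). The start of Ifit3b, its near copy (chr19:34607687-34608188), read 3.40 and 3.32 in MM and 5.49 and 5.24 in MP. Again there was no overlap, and the difference was 2.00 ± 0.19. The Ifit1/Ifit1bl2 starts (chr19:34640554-34641055) went from 3.72 and 3.41 in MM to 5.50 and 5.53 in MP, the highest level of this region in any group. Ifit1 encodes the family member best known for binding viral RNA ends, and this region rose by 1.95 ± 0.21 (adjusted p = 6.15e-09).

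Ifit1bl1, a relative of Ifit1, has 2 annotated starts with a region each. The outer start (chr19:34601859-34602360) read 3.09 and 3.02 in MM and 5.03 and 4.89 in MP. The inner start (chr19:34599241-34599742) read 2.10 and 2.41 in MM and 3.79 and 3.83 in MP. Both rose, by 1.91 ± 0.26 and 1.55 ± 0.35, with the outer start at the higher level in all 18 libraries. Between the outer start and Ifit3b, 650 bases before the Ifit3b start, a weak region (chr19:34607057-34607558) read 1.13 and 1.49 in MM and 2.80 and 2.30 in MP. It rose by 1.24 ± 0.43, from 16 to 55 reads, but not without MM replicate 1 (1.06, adjusted p = 0.146) or MP replicate 1 (0.99, adjusted p = 0.0929).

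The start of Ifit2 did not pass. Ifit2 encodes an IFIT protein linked to antiviral defence and cell death. Its start region (chr19:34550374-34550875) read 4.60 and 4.81 in MM and 4.79 and 4.75 in MP. The libraries overlapped, and the difference was 0.07 ± 0.18 (adjusted p = 0.851). In all 18 libraries it stayed between 4.40 and 4.81, a span of group means of 0.31. In MM it was the most open region of the 16, at 223 reads, and its ratio of CPM in MP was 1.07 (exact 95% interval 0.892 to 1.28).

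The largest differences lay past the end of Ifit2. Between the end of Ifit2 and the start of Ifit3, which are 7.00 kb apart, lay spacer a (chr19:34577068-34577569) and spacer b (chr19:34577802-34578303), 784 and 1518 bases past the Ifit2 end. Spacer b read 0.40 and -0.70 in MM and 4.54 and 4.47 in MP. In reads this was 4 and 0 against 125 and 100, a ratio of CPM of 49.3 (exact 95% interval 18.99 to 183). Spacer b thus went from near the floor of the assay to a level close to that of the Ifit2 start, with a difference of 4.65 ± 0.42 (adjusted p = 2.31e-10). Spacer a read 1.13 and 0.31 in MM and 5.19 and 5.18 in MP. It rose by 4.46 ± 0.33, with no overlap. The Ifit2 3′ end, 354 bases inside the gene (chr19:34575930-34576431), read -0.34 and 0.31 in MM and 3.83 and 3.67 in MP. It rose by 3.76 ± 0.47 from 3 reads to 131.

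Within Ifit2, the intragenic regions a (chr19:34552896-34553397), b (chr19:34553725-34554226) and c (chr19:34570053-34570554) rose by 2.01 ± 0.27, 2.91 ± 0.34 and 1.20 ± 0.19 in MP. Region c was already at 4.65 and 4.35 in MM and reached 5.75 and 5.64, the highest level of any member, while region b started at 1.01 and 1.49. Upstream of Ifit2 by 2113 bases (chr19:34548331-34548832), the level went from 1.98 and 1.91 to 3.16 and 2.91, a rise of 1.09 ± 0.33. That call was lost without MM replicate 2 (1.06, adjusted p = 0.0517) and after quantile normalization (0.70, adjusted p = 0.166). Just past Ifit1, 421 bases beyond its end (chr19:34650180-34650681), the level went from -0.05 and -0.10 to 3.81 and 3.59. This region, with 3 reads in MM and 127 in MP, rose by 3.77 ± 0.49. The far end of Ifit1bl1, 12.4 kb past the Ifit1 end (chr19:34662175-34662676), read 3.38 and 3.45 in MM and 3.56 and 3.07 in MP and had a difference of -0.10 ± 0.26.

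**Figure D1:**
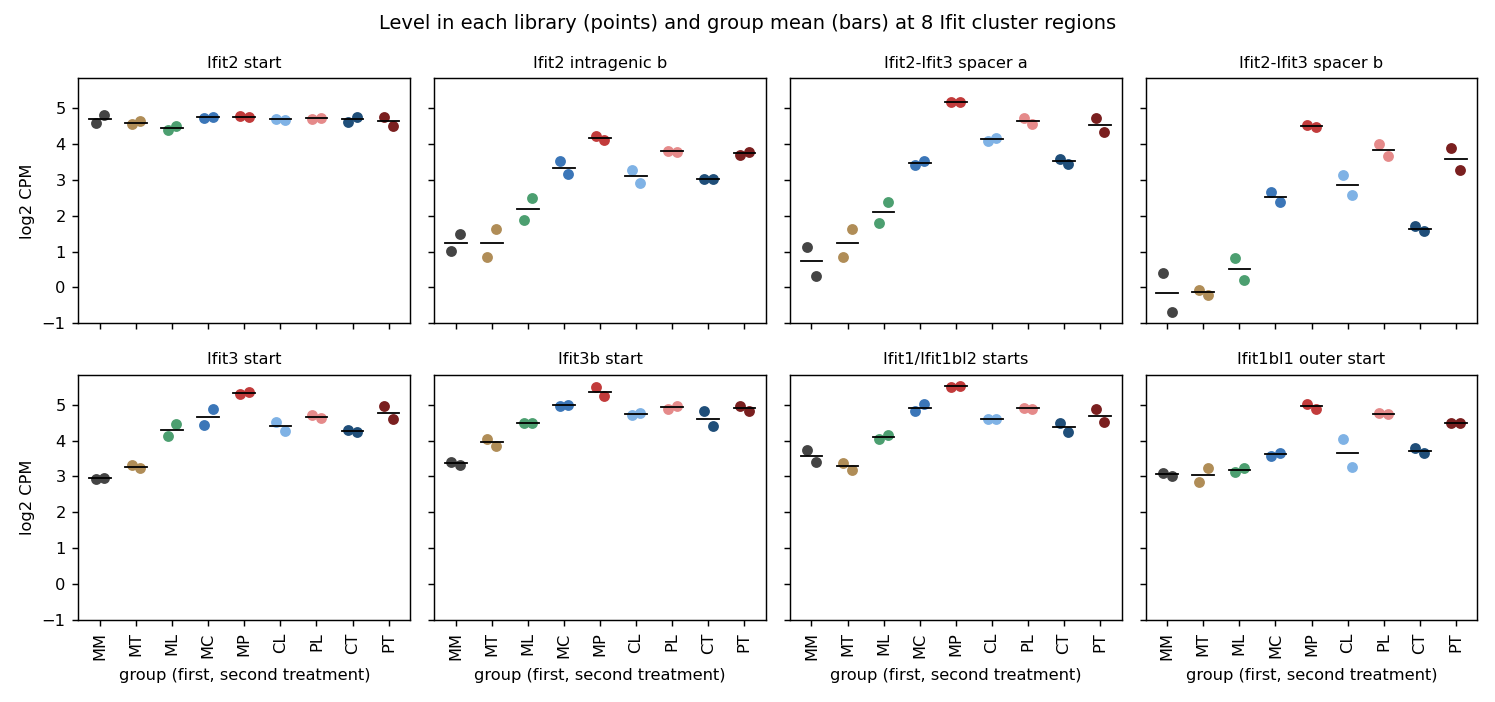
Level in log2 CPM in each library (points) and the group mean (bars) at 8 regions of the cluster, with groups named by first and second treatment. The Ifit2 start stays between 4.40 and 4.81 in every library, while spacer b runs from -0.70 in an MM library to 4.54 in an MP library.

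CpG alone raised 12 of the 16 regions, against 17.2% of all regions, with a median of 1.32. Spacer a read 3.42 and 3.53 in MC, and spacer b read 2.68 and 2.39. Both lay above MM and below MP in every library, at differences from MM of 2.75 ± 0.27 and 2.68 ± 0.34. At the Ifit3 start the MC libraries read 4.44 and 4.88, a rise of 1.71 ± 0.18. The Ifit3b start, at 4.96 and 5.01, rose by 1.62 ± 0.16, and the Ifit1/Ifit1bl2 starts, at 4.83 and 5.02, by 1.36 ± 0.17. The 4 regions that did not pass were the Ifit2 start (0.04 ± 0.15), the region upstream of Ifit2 (0.36 ± 0.27), the inner start of Ifit1bl1 (0.52 ± 0.28) and its far end (-0.06 ± 0.21). Some weaker calls rested on single libraries, as the outer start of Ifit1bl1 (0.57 ± 0.21, adjusted p = 0.0409) had adjusted p of 0.107 to 0.18 without any of MM replicates 1 and 2 and MC replicates 1 and 2. After quantile normalization 8 regions rose.

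LPS alone raised 5 of the 16 regions, against 15% of all regions, with a median of 0.53. These were spacer a at 1.37 ± 0.27, the Ifit3 start at 1.35 ± 0.18, the Ifit3b start at 1.13 ± 0.16, intragenic region b at 0.93 ± 0.27 and the Ifit1/Ifit1bl2 starts at 0.53 ± 0.17. The Ifit3 start read 4.13 and 4.47 in ML and spacer a read 1.79 and 2.39. Both lay clear of MM. Spacer b, at 0.81 and 0.20, overlapped MM and differed by 0.66 ± 0.34. Without ML replicate 2 the count was 3, and after quantile normalization it was 3, with spacer a at 0.60 (adjusted p = 0.0806). Intragenic region b was lost without ML replicate 2 (0.62, adjusted p = 0.213) or MM replicate 1 (0.69, adjusted p = 0.145), and the Ifit1/Ifit1bl2 starts without ML replicate 1 (0.58, adjusted p = 0.0677), ML replicate 2 (0.48, adjusted p = 0.126) or MM replicate 2 (0.37, adjusted p = 0.234).

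TNF alone raised 1 of the 16 regions, against 5.79% of all regions, with a median of -0.02. The region was the Ifit3b start, which read 4.06 and 3.85 in MT against 3.40 and 3.32 in MM, at 0.59 ± 0.16 (adjusted p = 0.0162). That call was lost with voom on the recovered reads (0.62, adjusted p = 0.0812), in a fit of MM and MT alone (0.59, adjusted p = 0.0579), and without MM replicate 1 (0.63, adjusted p = 0.0576), MM replicate 2 (0.55, adjusted p = 0.145) or MT replicate 1 (0.48, adjusted p = 0.207). The Ifit3 start read 3.32 and 3.23 in MT, above both MM libraries, and differed by 0.33 ± 0.18 (adjusted p = 0.377). Spacer b read -0.07 and -0.20, which is 2 reads and 1 read.

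**Figure D2:**
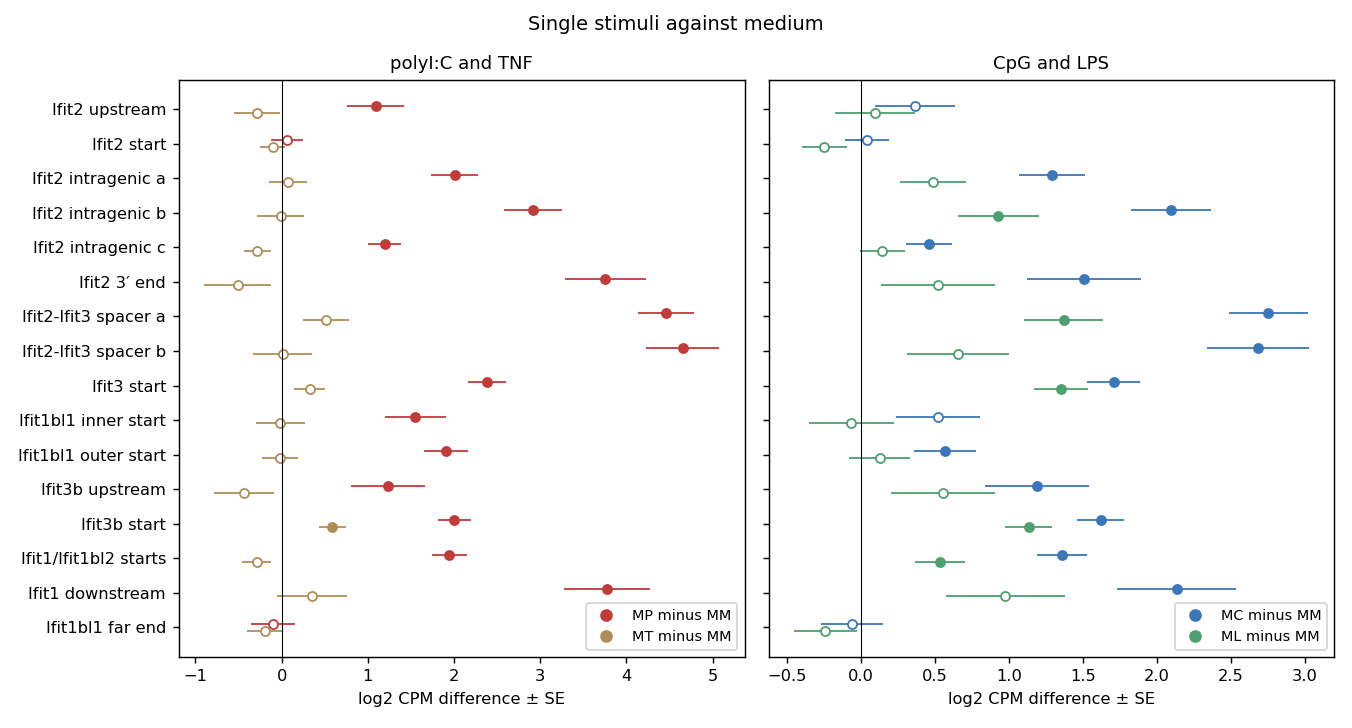
Difference from MM in log2 CPM ± SE at each of the 16 regions, for polyI:C and TNF on the left and CpG and LPS on the right, with filled points for regions called at an adjusted p under 0.05. PolyI:C points lie above 1 at 14 regions, and TNF points lie between -0.51 and 0.59.

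The stimuli were also compared with each other. PolyI:C exceeded LPS at 13 of the 16 regions, against 6.24% of all regions, with a median of 1.47. It exceeded CpG at 8, against 5.2%, with a median of 0.73. The largest of these gaps to CpG were at the Ifit2 3′ end (2.25 ± 0.47), spacer b (1.97 ± 0.42), spacer a (1.71 ± 0.33) and the region past Ifit1 (1.64 ± 0.49). At the 6 regions that hold a start, the gaps to CpG were 1.34 ± 0.26 and 1.03 ± 0.35 at the outer and inner starts of Ifit1bl1, 0.67 ± 0.22 at the Ifit3 start, 0.59 ± 0.21 at the Ifit1/Ifit1bl2 starts (adjusted p = 0.0552), 0.38 ± 0.19 at the Ifit3b start (adjusted p = 0.223) and 0.02 ± 0.18 at the Ifit2 start. The call at the inner start of Ifit1bl1 (adjusted p = 0.0453) was lost without any of the ML, MC, CL or PL libraries (adjusted p of 0.0509 to 0.163). Without MC replicate 1 the count against CpG was 4, with the Ifit3 start at 0.45 (adjusted p = 0.347) and the region past Ifit1 at 1.304 (adjusted p = 0.187). The Ifit3 call was also lost without either PL library (adjusted p = 0.0505 and 0.0504).

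CpG exceeded LPS at 5 of the 16 regions, against 3.74% of all regions, with a median of 0.61. These were spacer b (2.03 ± 0.34), spacer a (1.38 ± 0.27), intragenic regions b (1.17 ± 0.27) and a (0.80 ± 0.22), and the Ifit1/Ifit1bl2 starts (0.82 ± 0.17). At the Ifit3 start the difference was 0.36 ± 0.18 (adjusted p = 0.254). The count was 1 without ML replicate 1 and 3 without MC replicate 1 or MC replicate 2. LPS exceeded TNF at 4 of the 16 regions, against 3.11% of all regions, with a median of 0.58. These were the starts of Ifit3 (1.03 ± 0.18), Ifit3b (0.55 ± 0.16) and Ifit1/Ifit1bl2 (0.82 ± 0.17), and intragenic region b (0.94 ± 0.27). This count ran from 1 without ML replicate 2 to 7 without either PT library, and it was 2 without ML replicate 1, MT replicate 1 or any of the MC, CL or PL libraries.

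**Figure D3:**
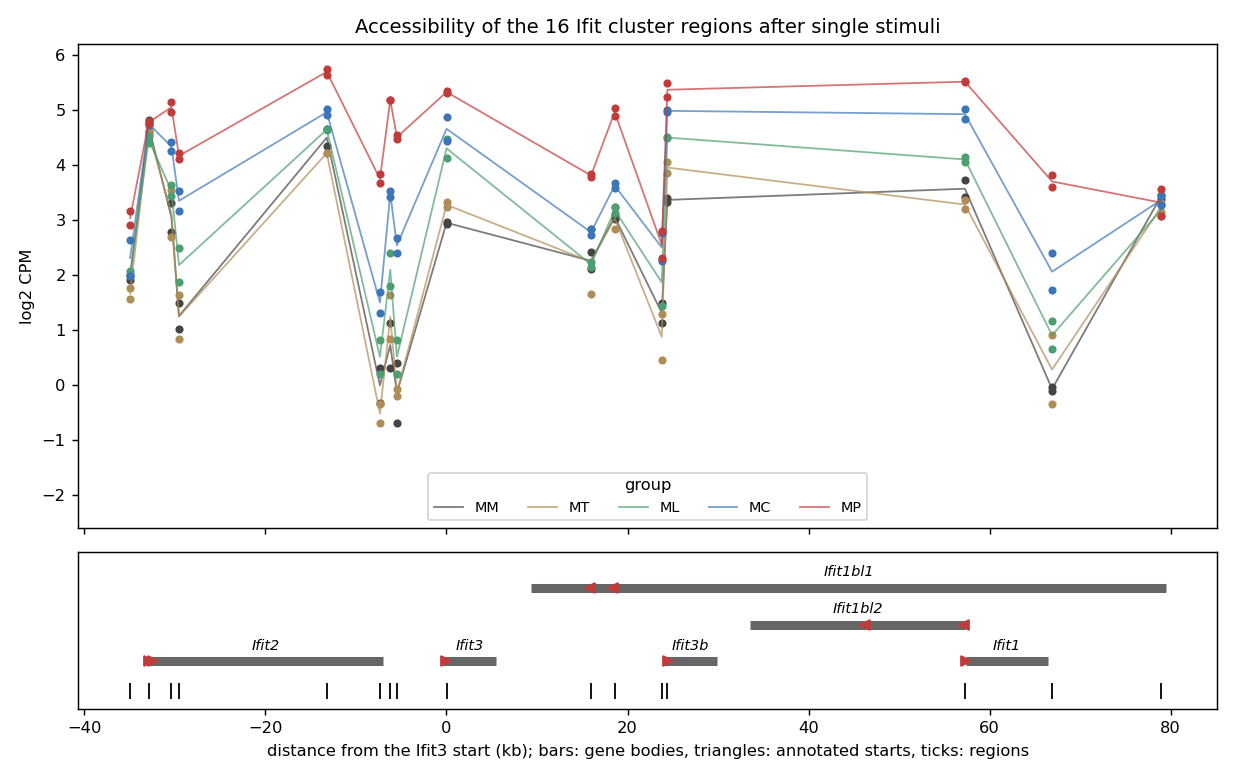
Level in log2 CPM of the 16 regions for the 5 groups given medium first, against distance from the Ifit3 start in kb, with points for libraries and lines joining group means. Gene bodies, annotated starts and regions are drawn below to the same scale. The MP line is the highest at all regions but the far end of Ifit1bl1, and it meets the others at the Ifit2 start.

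Averaged over the 16 regions, the levels were 2.22 in MT, 2.24 in MM, 2.76 in ML, 3.11 in CT, 3.43 in CL, 3.505 in MC, 3.84 in PT, 3.97 in PL and 4.42 in MP. MP had the highest mean at 13 regions, PL at 2 and MM at 1. MT had the lowest mean at 7, MM at 6 and ML at 3. Some neighbours in this order overlapped at single regions. At the Ifit3 start, the CT libraries (4.30 and 4.24) lay within the range of the ML libraries (4.13 and 4.47), and the PL libraries (4.71 and 4.64) within that of the PT libraries (4.96 and 4.59). Each region's 9 group means were also correlated with the mean over members, as a description over means that share libraries. That mean includes the region itself, which raises the coefficient, most for regions of wide span. The coefficient was 0.89 to 0.99 at 14 regions, 0.51 at the Ifit2 start and -0.13 at the far end of Ifit1bl1.

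A first stimulus before LPS was compared with medium before LPS to ask what earlier exposure changed. PolyI:C first (PL against ML) raised 12 of the 16 regions, against 13.5% of all regions, with a median of 1.01. CpG first (CL against ML) raised 6, against 9.95%, with a median of 0.54. Both comparisons use the ML libraries as their control. Spacer b read 4.02 and 3.67 in PL and 3.13 and 2.59 in CL, where ML read 0.81 and 0.20. Neither group overlapped ML, and the differences were 3.34 ± 0.34 and 2.35 ± 0.34. Spacer a read 4.74 and 4.57 in PL and 4.08 and 4.18 in CL, against 1.79 and 2.39 in ML, at differences of 2.56 ± 0.27 and 2.04 ± 0.27.

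Differences at the starts had smaller values. At the Ifit3 start PL read 4.71 and 4.64 and CL read 4.53 and 4.28, beside 4.13 and 4.47 in ML. The differences of 0.37 ± 0.18 (adjusted p = 0.137) and 0.10 ± 0.18 (adjusted p = 0.756) did not pass. The Ifit1/Ifit1bl2 starts, at 4.91 and 4.89 in PL and 4.60 and 4.61 in CL against 4.05 and 4.15 in ML, rose by 0.80 ± 0.17 and 0.51 ± 0.17. The outer start of Ifit1bl1 read 4.77 and 4.73 in PL and 3.13 and 3.23 in ML, a rise of 1.57 ± 0.21, whereas the CL libraries were far apart at 4.06 and 3.26. The Ifit3b start differed by 0.43 ± 0.16 in PL (adjusted p = 0.0437), which was lost without any of the 4 PL and ML libraries (adjusted p of 0.104 to 0.203). The Ifit1/Ifit1bl2 call in CL was lost without any of the 4 CL and ML libraries (adjusted p of 0.107 to 0.217). Without ML replicate 1 or CL replicate 1 the CpG count was 2. It was 3 without ML replicate 2 and 3 with the libraries shifted to a common median.

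Before TNF, polyI:C first (PT against MT) raised 14 of the 16 regions, against 15% of all regions, with a median of 1.43. CpG first (CT against MT) raised 10, against 10.6%, with a median of 0.77, and 5 without CT replicate 1. The MT libraries are the control of both. Spacer b read 3.89 and 3.27 in PT and 1.70 and 1.58 in CT, where MT read -0.07 and -0.20. The differences were 3.72 ± 0.34 and 1.78 ± 0.34, and the second was lost after quantile normalization (0.94, adjusted p = 0.0605). At the Ifit3 start PT read 4.96 and 4.59 and CT read 4.30 and 4.24, against 3.32 and 3.23 in MT. All 4 libraries lay above MT, at differences of 1.503 ± 0.18 and 1.00 ± 0.18. The Ifit1/Ifit1bl2 starts rose by 1.42 ± 0.17 in PT and 1.10 ± 0.17 in CT, and the Ifit3b start by 0.96 ± 0.16 and 0.66 ± 0.16. The Ifit3b call in CT was lost without CT replicate 1 (0.46, adjusted p = 0.115) or MT replicate 2 (0.56, adjusted p = 0.0679). The Ifit2 start differed by 0.04 ± 0.15 in PT and 0.09 ± 0.15 in CT. The PT libraries agreed least of all groups, and the spread used for every group was estimated over all groups but MP.

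**Figure D4:**
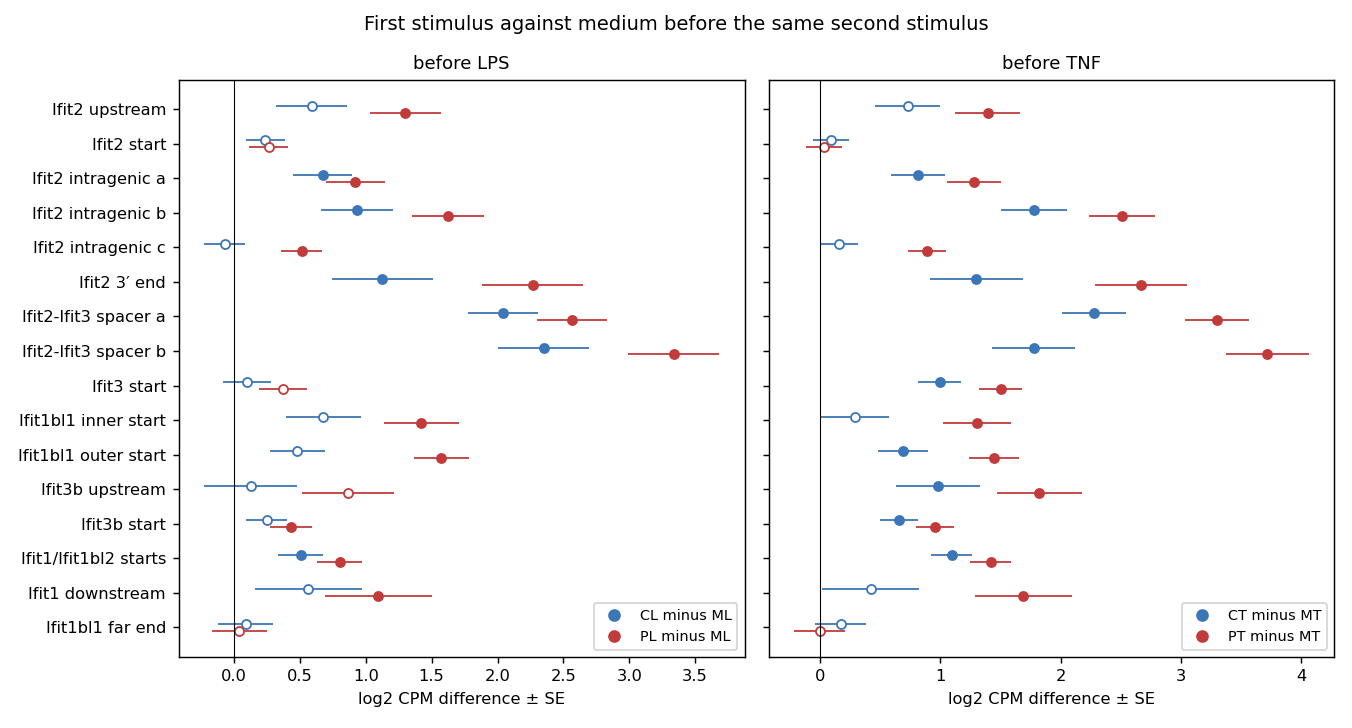
Difference made by a first stimulus before LPS (left) and before TNF (right) in log2 CPM ± SE at each region, with filled points for regions called at an adjusted p under 0.05. Spacer b has the largest polyI:C difference in both panels, 3.34 before LPS and 3.72 before TNF. The Ifit3 start has open points before LPS and filled points before TNF. That contrast did not pass as a difference of differences for either first stimulus.

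Whether the effect of a first stimulus differed between LPS and TNF was tested as a difference of differences. With limma, 0 of the 16 regions passed for CpG, against 0.245% of all regions called in either direction, and 0 passed for polyI:C, against 0% of all regions. At an unadjusted p under 0.05 the counts were 3 and 4, though the share of all regions at that level was not counted, and voom called 0 for each. The smallest adjusted p was at the Ifit3 start in both, where the effect before LPS was lower than that before TNF by 0.90 ± 0.26 on the log2 scale for CpG (difference -0.90, adjusted p = 0.154) and by 1.13 for polyI:C (difference -1.13 ± 0.26, adjusted p = 0.342). The CpG difference passed without PT replicate 1 or PT replicate 2 (adjusted p = 0.0312 and 0.0298) and in a fit of the compared groups alone (adjusted p = 0.0381). The polyI:C difference was -1.32 without PT replicate 2 (adjusted p = 0.0495). The sign was negative at 12 of the 16 regions for each, with medians of -0.19 for CpG and -0.39 for polyI:C. Over all regions the medians were 0.004 and 0.015. Both differences of differences use the ML and MT libraries, so they are not separate observations. At the Ifit3 start the group means were 4.40 in CL and 4.27 in CT, and 4.67 in PL and 4.78 in PT. The controls there were further apart, at 4.30 in ML and 3.27 in MT, a difference of 1.03 ± 0.18.

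The first stimuli were then set against each other. Before TNF, polyI:C exceeded CpG (PT against CT) at 9 of the 16 regions, against 14.6% of all regions, with a median of 0.73, and at 5 without CT replicate 2. Spacer b differed by 1.94 ± 0.34, the Ifit2 3′ end by 1.37 ± 0.38, the region past Ifit1 by 1.27 ± 0.40 and the Ifit3 start by 0.51 ± 0.18. The Ifit3 call was lost without PT replicate 1 (0.32, adjusted p = 0.208) or either CT library (0.53 and 0.48, adjusted p = 0.0745 and 0.152), and that past Ifit1 without CT replicate 2 (0.94, adjusted p = 0.199) or PT replicate 1 (1.16, adjusted p = 0.0525). Before LPS (PL against CL) the count was 2, against 4.23% of all regions, with a median of 0.56. These were the outer start of Ifit1bl1 (1.09 ± 0.21) and intragenic region c (0.58 ± 0.16). The count was 0 without CL replicate 2 and 1 without CL replicate 1, PL replicate 1 or PL replicate 2, and it rose to 8 in a fit of PL and CL alone, 7 after quantile normalization, 5 with voom, and 4 with log2(CPM + 1), with no variance trend, with the MP libraries as 2 samples, or without an MM or PT library.

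Against medium throughout, the number of regions raised was 14 of 16 in PL (23.3% of all regions), 14 in PT (21.2%), 11 in CL (21.9%) and 8 in CT (18.3%). The medians were 1.49, 1.41, 1.10 and 0.78. Spacer a differed from MM by 3.93 ± 0.27 in PL, 3.82 ± 0.27 in PT, 3.41 ± 0.27 in CL and 2.79 ± 0.27 in CT. The Ifit3 start differed by 1.72 ± 0.18, 1.83 ± 0.18, 1.45 ± 0.18 and 1.32 ± 0.18. These comparisons share the MM libraries.

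At the members that hold a start, all 5 with 1 or more ISRE cores rose in MP, and the Ifit2 start, with 0, did not pass. These 5 are not separate cases, since the Ifit3 and Ifit3b windows are near copies. The windows of the inner and outer starts of Ifit1bl1 also aligned at 87.1% identity over 224 columns. The Ifit2 start is the only member start region without a core, and whether the cores decide which starts open was not tested. Among regions at starts of other genes, 278 of 7897 with no core rose in MP (3.52%), as did 65 of 260 with 1 core (25%) and 8 of 23 with 2 or more (34.8%). This is a description of matches in a short window, and the regions past Ifit2 and Ifit1 that changed most lay outside the windows searched.

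Other genes of the pathway were counted by list, over all regions nearest to each gene. Of 93 regions of other antiviral interferon-stimulated genes (25 of 30 genes), polyI:C raised 68 and lowered 0, with a median of 1.10. CpG raised 58, LPS 27 and TNF 3, with medians of 0.74, 0.31 and -0.04. Over all regions these stimuli raised 17.2%, 15% and 5.79%, so the TNF count is no higher than its share. The most significant in MP were near Rsad2, which encodes viperin, at 4.99 ± 0.37, Oasl1 at 3.12 ± 0.25, the exonuclease gene Isg20 at 2.07 ± 0.17 and Ifitm3, which blocks viral entry, at 2.88 ± 0.25. TNF gave 0.41 ± 0.30 at the Rsad2 region and -0.49 ± 0.20 at the Oasl1 region, and neither passed. In PL, PT, CL and CT, compared with medium before the same second stimulus, 49, 54, 33 and 42 of these 93 regions rose. The shares over all regions were 13.5%, 15%, 9.95% and 10.6%.

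Over all regions polyI:C raised 14.3% and lowered 8.28%, which is the background for the polyI:C counts of every list here. Upstream of the interferon receptor, 19 of 65 regions of sensors and adaptors rose in MP and 5 fell (median 0.21). Regions near Ifih1, a cytosolic sensor of double-stranded RNA, and Irf7, a transcription factor of interferon genes, rose by 2.50 ± 0.35 and 1.97 ± 0.24, and those near the kinase gene Tbk1 and the adaptor gene Traf3 by 1.67 ± 0.19 and 1.62 ± 0.29. Of 42 regions of receptor signalling genes, 10 rose and 4 fell (median 0.28). They included regions near the receptor chain gene Ifnar1 (2.09 ± 0.25) and the receptor kinase genes Jak1 (2.07 ± 0.21) and Tyk2 (1.64 ± 0.25). Of 29 regions of feedback genes, 12 rose and 1 fell (median 0.60), with Socs3 at 2.71 ± 0.24, Socs1 at 1.53 ± 0.16, Usp18 at 1.08 ± 0.17 and Ptpn6 at 0.65 ± 0.17. In PT against CT, 2 regions of that feedback list rose and 16 fell, while 14.6% of all regions rose and 17.3% fell. Rises in these lists were not limited to polyI:C. In the sensor, receptor and feedback lists CpG raised 20, 8 and 16 regions and lowered 5, 2 and 1. LPS raised 11, 7 and 14 and lowered 7, 2 and 0. Over all regions CpG raised 17.2% and LPS 15%. The Socs3 region rose by 3.20 ± 0.19 with CpG and 3.25 ± 0.19 with LPS. The Tbk1 region rose by 1.59 ± 0.15 and 1.51 ± 0.15. At the Ifih1 region CpG passed (1.14 ± 0.28) and LPS did not (-0.18 ± 0.28).

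Targets of NF-kB after TNF served as a contrast. Of their 101 regions TNF raised 33 and lowered 1 (median 0.24), and polyI:C raised 43 and lowered 4 (median 0.49). A region near Tnfaip3, an inhibitor of NF-kB, rose by 1.503 ± 0.15 with TNF and 1.49 ± 0.19 with polyI:C, and a region near Tnip1 by 2.80 ± 0.22 and 3.11 ± 0.27. Near Nfkb1, which encodes an NF-kB subunit, the rises were 2.06 ± 0.19 and 3.79 ± 0.23, and at the start of the apoptosis inhibitor gene Birc3 they were 0.89 ± 0.10 and 0.98 ± 0.12. These named regions were picked by the smallest p in MP against MM, which favours polyI:C where the values are set side by side. Over all regions TNF raised 5.79%, and the 1 of 16 Ifit regions it raised is near that share.

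Regions of other genes were ranked by likeness of their 9 group means to the mean of the Ifit regions, among 3270 regions whose group means spanned at least 2 log2 units. The 8 genes with the highest Pearson coefficients were Kcnn4 and Atg16l1 (each 0.99), then Rsad2, Fut8, Helt, Ptpn13, Sec24b and Slc31a2 (each 0.99). The Rsad2 region (chr12:26442981-26443482) went from 0.36 in MM to 5.09 in MP, and the Kcnn4 region (chr7:24380370-24380871) from 1.07 to 3.42. The coefficients are over means that share libraries and carry no test.

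Regions around the cluster were counted as well. Of 27 other regions within 250 kb, polyI:C raised 2 and lowered 3, with a median of -0.18. These counts are near the shares over all regions, 14.3% raised and 8.28% lowered. Their differences with TNF ran from -0.70 to 0.65. The raised ones lay by Ch25h, which encodes cholesterol 25-hydroxylase, at 0.95 ± 0.27 (chr19:34435266-34435767) and 0.88 ± 0.25 (chr19:34441994-34442495). The lowered ones lay by Ch25h (-0.82 ± 0.28), by Lipa, which encodes lysosomal acid lipase (-0.93 ± 0.22), and by Pank1, a pantothenate kinase gene (-1.51 ± 0.33).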

How the data were processed

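ATAC-seq was measured in 18 libraries of mouse macrophages, 2 in each of 9 groups taken from the sample titles. The deposited table holds log2 CPM per region. Per the submitters' processing notes, the authors used MACS3 3.0.0b1, featureCounts, Picard, Bowtie2 2.2.5 and SAMtools 1.9 on GRCm38 (mm10). How regions were merged is not given in the sources used here. The deposited values returned whole reads within 0.01 (100% of values) with a mean prior of 3 reads, which shrinks differences at low regions. Coordinates are printed as deposited, and genes, starts and windows are those of RefSeq.

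A linear model with a mean for each of the 9 groups and a variance trend was fitted to all 53796 unfiltered regions with limma 3.58.1 in R 4.3.3 (8 residual and 26.6 prior degrees of freedom), and p-values were adjusted by Benjamini and Hochberg over all regions of each comparison. A region in several gene bodies was given to the gene with the nearest annotated start. The median SE was 0.208. In simulated data for MP against MM over 53796 regions, all log2 changes of 2 were recovered. These changes were placed only in regions of higher mean read number, so the weakest member regions were not covered. Recovery of smaller changes is not given here. Intervals of read ratios are exact and cover counting error only. Replicate numbers were checked for pairing and did not pair the samples in a consistent way. All member regions were named. Lists were described by counts and medians, with up to 4 genes each by the smallest p in MP against MM, of which 1 is not reported here. The members and lists were chosen with earlier results of these data known. Alternatives covered scaling, filtering, the prior, the variance model, the samples fitted, the block, each library left out, and 2 other rules of assigning regions to genes, which gave the same 16 regions.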

Additional observations from a re-analysis of the deposited data

How the results depend on the processing

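Of the counts of Ifit regions under alternative settings, 499 stayed within 1.5 times the reported count and 61 did not, and across single regions 0 calls changed sign, 224 were lost and 98 gained. Dropping regions whose mean level was under the 25th percentile left 9 of the 16, so counts fell by construction, to 7 in MC, MP, PL and PT against MM, MP against ML and PT against MT, to 6 in CL against MM, PL against ML and CT against MT, to 4 in MP against MC and PT against CT, and to 3 in MC and CL against ML. Quantile normalization gave 3 in ML against MM, 2 in ML against MT, 7 in PL against CL and 7 in CL against MM. Shifting libraries to a common median gave 3 in CL against ML. PL against CL was 4 with log2(CPM + 1), with no variance trend and with MP as 2 samples, 5 with voom and 8 with only the compared groups. MT against MM was 0 with voom and with only the compared groups, which gave 1 lower region in the CpG difference of differences. The cause was not tested.

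Leaving out each library in turn gave, against MM, 8 to 12 regions in MC, 3 to 6 in ML, 13 to 14 in MP, 0 to 1 in MT, 9 to 12 in CL, 14 in PL, 6 to 8 in CT and 13 to 14 in PT. It gave 4 to 10 for MP against MC, 12 to 13 for MP against ML, 1 to 7 for MC against ML, 1 to 7 for ML against MT, 2 to 6 for CL against ML, 8 to 13 for PL against ML, 5 to 11 for CT against MT, 12 to 14 for PT against MT, 0 to 4 for PL against CL and 5 to 9 for PT against CT. Each difference of differences gave 0 to 1 lower regions. A group left with 1 library was assumed to vary like the others.

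With the replicate number as a term (replicate block), the counts were 9 for CT against MT and 3 for PL against CL and unchanged for the other comparisons. The replicate differences of the groups correlated at -0.36 to 0.24 over 36 pairs of groups, with 5 over 0.1. The numbers thus did not pair the samples in a consistent way. Some groups shared replicate differences of the same sign, as MT and PT (0.24) and MC and CT (0.21). Others were opposed, as CT and PT (-0.36) and MC and PT (-0.26). The replicate term has the same sign in every group and cannot take up opposed differences. A pairing of libraries across groups that does not follow the replicate numbers was not tested. Depth limits the weakest regions most, since spacer b, the Ifit2 3′ end and the region past Ifit1 had 3 or 4 reads in MM.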
